A study of Homo sapiens with 12 samples.

Results

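Open chromatin of MDA-MB-453 cells with induced Y537S estrogen receptor alpha (ER) was compared with that of cells with induced wild-type (WT) ER. MDA-MB-453 is an established human breast cancer line with luminal features. The comparison used 4 of the 12 ATAC-seq libraries of the series, 2 against 2: Y537S with doxycycline (Dox), Y537S with Dox and estradiol (E2), WT with Dox, and WT with Dox and E2. All 4 came from MDA-MB-453 lines with an ectopic ER that Dox switches on, given Dox for 2 days at a dose read as 2 µg/mL (the unit is misspelt in the labels), with 1 nM E2 or without it. Each condition had 1 library, and neither the promoter of the construct nor whether a line was 1 clone is given in the sources used here. Peaks of the 4 libraries were merged wherever they overlapped by 1 bp or more on chromosomes 1 to 22 and X. Before that, every list was limited to its 64476 strongest peaks by p-value, the length of the shortest list. A region is called Y537S-side where both Y537S libraries and neither WT library had a peak, WT-side in the reverse case, and shared where all 4 had one. The rule did not use the 8 other libraries.

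ER is a ligand-activated transcription factor that binds estrogen response elements, paired GGTCA half-sites, mostly at enhancers away from gene starts. Estradiol normally places its ligand-binding domain in the form that recruits coactivators. The Y537S substitution in that domain is found in breast cancers that progress on endocrine therapy, and it holds the receptor in the active form without hormone. ATAC-seq marks open chromatin through the cuts of a transposase, so it shows where chromatin is accessible and not which factor is bound.

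The promoters that carried the difference most clearly are shown first. In 90 of the RefSeq promoter windows (GRCh38.p14, 250 bases before to 50 after a transcription start) lay the summit of a Y537S-side region. Among the 12 with the strongest regions, 3 had no peak in any WT library and none in Y537S cells without Dox: CYP19A1, which encodes aromatase, the enzyme that makes estrogens from androgens, ACSL5, a long-chain fatty acid activating enzyme, and ARHGAP45, a GTPase-activating protein. The promoter of MTMR11, under the strongest WT-side region of this kind, is set beside them. Capitals mark GGTCA or its reverse complement TGACC.
CYP19A1 (chr15:51318448-51318747, minus strand): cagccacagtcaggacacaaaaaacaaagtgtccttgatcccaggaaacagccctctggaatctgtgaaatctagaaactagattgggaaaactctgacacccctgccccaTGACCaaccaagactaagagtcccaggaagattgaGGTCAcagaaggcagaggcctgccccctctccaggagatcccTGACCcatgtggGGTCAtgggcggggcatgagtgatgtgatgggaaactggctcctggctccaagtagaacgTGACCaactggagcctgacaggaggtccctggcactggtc
ACSL5 (chr10:112375955-112376254, plus strand): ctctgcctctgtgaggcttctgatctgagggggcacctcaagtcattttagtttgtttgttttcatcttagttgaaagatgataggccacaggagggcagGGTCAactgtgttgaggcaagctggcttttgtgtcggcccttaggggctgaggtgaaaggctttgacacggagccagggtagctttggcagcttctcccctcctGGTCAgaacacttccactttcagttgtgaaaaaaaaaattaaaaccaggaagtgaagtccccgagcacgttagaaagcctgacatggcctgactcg
ARHGAP45 (chr19:1065709-1066008, plus strand): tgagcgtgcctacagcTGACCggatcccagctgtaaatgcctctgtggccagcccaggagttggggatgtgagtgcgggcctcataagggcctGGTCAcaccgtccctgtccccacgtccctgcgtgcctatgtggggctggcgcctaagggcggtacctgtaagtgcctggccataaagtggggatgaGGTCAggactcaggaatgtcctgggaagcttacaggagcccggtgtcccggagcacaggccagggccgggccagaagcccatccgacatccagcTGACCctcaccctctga
MTMR11 (chr1:149936830-149937129, minus strand): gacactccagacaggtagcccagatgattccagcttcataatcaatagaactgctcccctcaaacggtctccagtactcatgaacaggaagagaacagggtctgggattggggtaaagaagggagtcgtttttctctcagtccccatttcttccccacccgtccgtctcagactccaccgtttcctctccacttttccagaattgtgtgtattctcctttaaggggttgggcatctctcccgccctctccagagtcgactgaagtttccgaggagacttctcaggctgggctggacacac
The CYP19A1 window held 5 half-sites, ARHGAP45 4, ACSL5 2 and MTMR11 none. Of the 12 strongest Y537S-side promoters these were the 3 with more than 1, while 3 held 1 and 6 held none; of the 12 strongest WT-side promoters 2 held 1 and 10 held none. The summit pileup, the number of overlapping fragments at the summit, was 27 at CYP19A1 in each Y537S library with Dox, and the 4 WT libraries and the 2 Y537S libraries without Dox had no peak there. At ACSL5 it was 21 with Dox and 18 with Dox and E2, and at ARHGAP45 17 and 27. The line with K303R ER, taken up below, had low peaks at these 3 promoters when induced. CYP19A1 had 6 with Dox and E2, ACSL5 5 with Dox and 7 with Dox and E2, and ARHGAP45 4 with Dox. At MTMR11 the pileup was 13 in both WT libraries with Dox and 10 in both Y537S libraries, so that promoter was accessible in all 4 and differed in rank.

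The 4 libraries gave 72253 merged regions. Of these, 5712 were Y537S-side (7.91%), 4738 were WT-side (6.56%) and 22421 were shared (31.0%). Both treatments gave differences in both directions. With Dox alone 17246 regions were open in Y537S and not WT and 17173 in WT and not Y537S, and with Dox and E2 the counts were 12395 and 13473. Of regions open in both Y537S libraries and in 1 WT library, 6331 had the WT peak with E2 and 1807 had it without. Each of these WT conditions is 1 library. Their lists were cut unlike, with a lowest kept pileup of 6 with Dox and 4 with Dox and E2, so the part of E2 was not tested. The arrangement of 2 against 2 allows 6 labellings and a smallest two-sided exact p of 0.333, so the counts are described without a test.

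**Figure D1:**
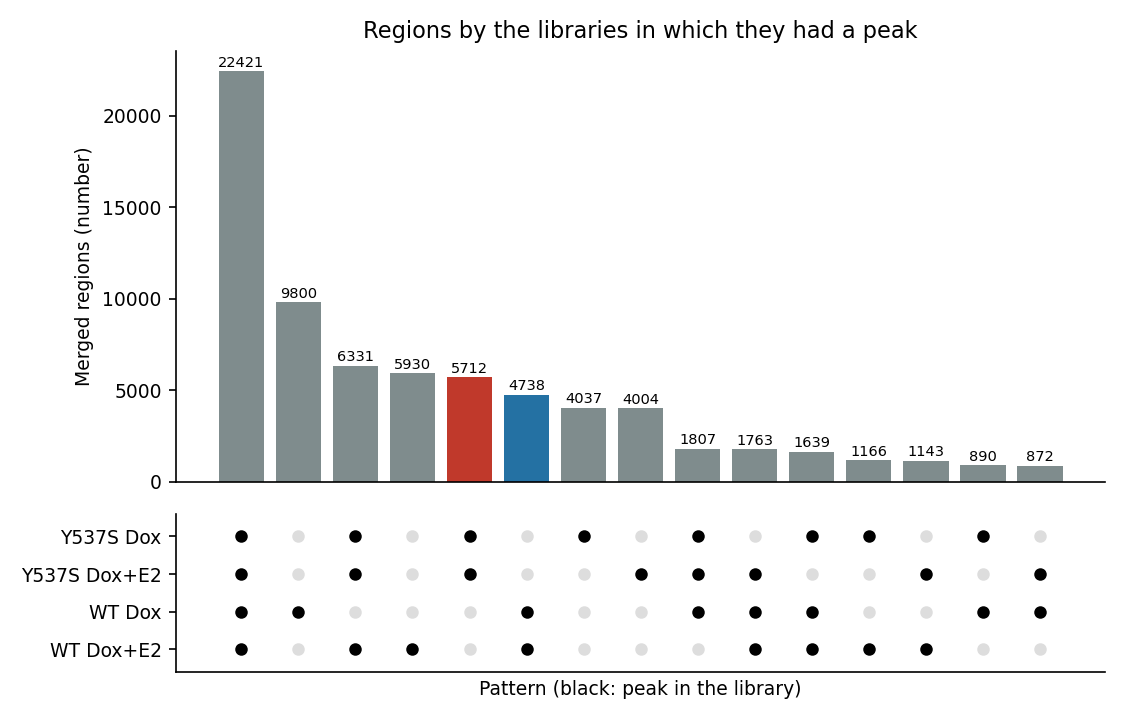
Number of merged regions (bars) for each combination of the 4 induced libraries (black dots below a bar: peak present). The red bar holds the 5712 Y537S-side and the blue bar the 4738 WT-side regions, against 22421 shared by all 4 libraries and 9800 found in WT with Dox alone.

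The near balance of both sides comes from the equal list length, and the sides differ in what absence means. The uncut lists held 132496 and 133963 peaks in Y537S and 82091 and 64476 in WT. The background pileup, which stands for depth, was 0.329 and 0.364 in Y537S and 0.361 and 0.253 in WT, and its part in the list lengths was not tested. The lowest kept pileup was therefore 11 in both Y537S libraries, 6 in WT with Dox and 4 in WT with Dox and E2. With all deposited peaks, 27440 regions were Y537S-side and 893 WT-side, so 96.8% of both together lay on the Y537S side against 54.7% at equal length. In the full lists 86.9% of Y537S-side regions (4964) had no peak in either WT library, while 12.9% of WT-side regions (612) had none in either Y537S library. For the WT Dox and E2 library this absence holds by construction, because its list was not shortened. Of WT-side regions, 76.0% had a lower-ranked peak in Y537S with Dox and 76.6% in Y537S with Dox and E2, with a median pileup of 8 in each. WT-side thus mostly means a lower rank in Y537S and Y537S-side mostly means no WT peak. Signal over background also differed between the lines. The median pileup of shared regions divided by background was 72.9 and 68.8 in induced Y537S and 38.8 and 47.5 in induced WT. Without Dox it was 78.8 and 80.4 in Y537S and 42.0 and 47.3 in WT, so this gap was there without induction too. Its part in the missing WT peaks was not tested.

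Pileups were compared between forms after division by each library's median over the shared regions, which was 24 and 25 in Y537S and 14 and 12 in WT. By that measure 1275 Y537S-side regions (22.3%) and 1664 WT-side regions (35.1%) had both libraries of the open form at least 2-fold above both of the other. A library without a peak was set to a pileup of 4, the lowest listed. The Y537S-side share is therefore a minimum set mostly by that value, while the WT-side share rests mostly on measured pileups, and the shares are not like measures. Most members sat near the limit: the smaller Y537S pileup was 11 or 12 in 2273 of the Y537S-side regions (39.8%) and 20 or more in 535 (9.37%). The smaller WT pileup was 10 or more in 320 WT-side regions (6.75%). Peaks with the lowest kept pileup were tied with peaks left out, also at 11 in Y537S and at 6 in WT with Dox. Over the shared regions, the scaled log2 difference between Y537S and WT had an SD of 0.67 with Dox and 0.57 with Dox and E2. Within a form, the difference between the library with E2 and the one without had an SD of 0.37 in Y537S and 0.56 in WT. The spread between forms at shared regions was thus little wider than the spread between the 2 WT libraries, and no replicate shows the spread within a condition.

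The strongest Y537S-side regions had little or no signal outside induced Y537S cells. The region of largest signal lay 2.29 kb from ACTG1, which encodes cytoplasmic gamma-actin (chr17:81505225-81510234). Its pileup was 60 with Dox and 59 with Dox and E2 in Y537S, 17 and 34 in Y537S without Dox, and 6 in WT with Dox, and the other WT libraries had no peak. A region inside EIF5, a translation initiation factor (chr14:103343206-103344559), had 50 in each induced Y537S library and no peak in any WT library or in Y537S without Dox. The next lay 50.8 kb from KCNK2, a background potassium channel, with 41 and 56, and 15.6 kb from RAVER2, an RNA-binding protein, with 39 and 55. Both of these were higher with E2, whereas 23.6 kb from IFT70A, a part of the ciliary transport machinery, the pileup was 41 without E2 and 37 with it. Regions inside PI4KA, a phosphatidylinositol kinase, and KCNK10, another potassium channel, had 39 and 37, and 36 and 42. Inside PHGDH, the enzyme that opens serine synthesis, it was 35 and 36. Regions inside ATP10B, a lipid flippase, and inside CDIN1, and those near DCSTAMP and LOC124903391, completed the 12. Over the 12 the median pileup was 38.5 with Dox and 39.5 with Dox and E2. WT with Dox had a peak at 2 of them, with a pileup of at most 6, and WT with Dox and E2, WT with E2 and untreated WT had none. Y537S without Dox had a peak at 1, the region near ACTG1.

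**Figure D2:**
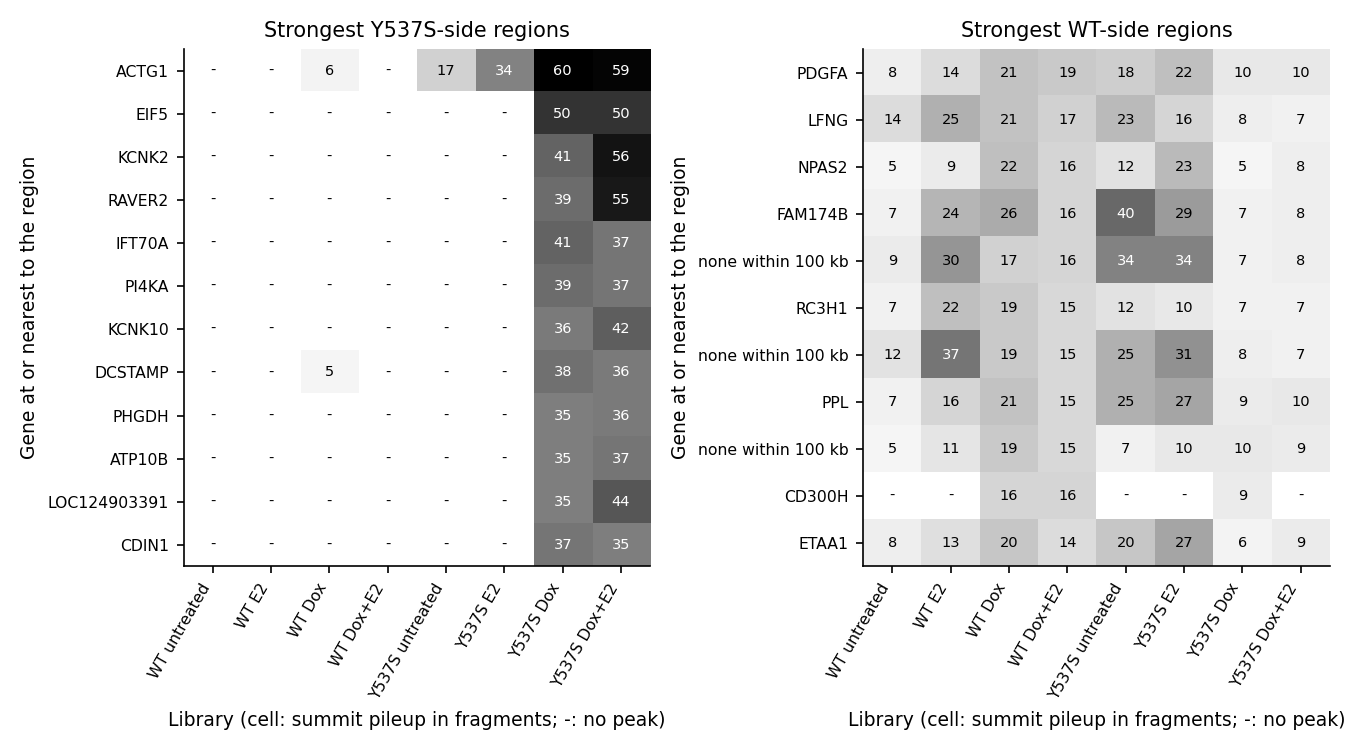
Summit pileup in fragments (numbers and grey shade) of the strongest regions of each side, by nearest gene (rows), in the 8 WT and Y537S libraries (columns); a dash marks no peak in the full list. In the left panel the induced Y537S columns hold 35 to 60 and nearly all others are empty, while in the right panel most cells of every column hold a peak.

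The strongest WT-side regions had the opposite build: they had a peak in most libraries, and those in induced Y537S cells were low. Inside PDGFA, a growth factor gene, the pileup was 21 in WT with Dox, 19 in WT with Dox and E2, and 10 in both induced Y537S libraries. Without Dox it was 8 and 14 in WT and 18 and 22 in Y537S. Inside LFNG, which modifies Notch receptors, WT had 21 and 17 and Y537S 8 and 7 with Dox, and Y537S had 23 and 16 without it. NPAS2, a circadian transcription factor, followed with 22 and 16 against 5 and 8. Inside FAM174B the pileup was 26 and 16 against 7 and 8, and 40 and 29 in Y537S without Dox. Near RC3H1, which encodes an RNA-decay factor, it was 19 and 15 against 7 and 7, and near PPL, which encodes periplakin, 21 and 15 against 9 and 10. Over the 11 such regions described, the median was 20 and 16 in induced WT, 8 and 8 in induced Y537S, 20 and 23 in Y537S without Dox, and 7 and 16 in untreated and E2-treated WT. The library medians over shared regions differ, at 6 in untreated WT and 24 in untreated Y537S, so these pileups are not on 1 scale across libraries. The rule chose low values in induced Y537S, but it did not use the libraries without Dox. A peak near CD300H departed from the others: 16 and 16 in induced WT, 9 in Y537S with Dox, and no peak in WT or Y537S without Dox. Among WT-side regions without any induced Y537S peak were those inside CFAP74 (14 and 16), absent also from every library without Dox, and inside C3orf52 (19 and 14). A region inside PDE4D, a cAMP phosphodiesterase, had 14 and 10 and no peak without Dox. These 3 were chosen after their values were seen.

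Position set both sides apart from the shared regions. The summit lay within 1 kb of a gene start in 3.31% of Y537S-side regions (189; 95% interval 2.86 to 3.81), 17.2% of WT-side regions (814; 16.1 to 18.3) and 38.3% of shared regions, against 19.3% of all regions. The median distance to a start was 36.4 kb for Y537S-side, 17.3 kb for WT-side and 5.35 kb for shared regions. Inside a protein-coding gene lay 54.1%, 56.1% and 48.2%, against 52.2% of all regions. Y537S-side regions were thus mostly distal, while their share inside genes was near that of all regions. Exons were not given in the sources used here, so introns were not told apart. Intervals over regions are exact (Clopper-Pearson) and cover counting error only. The Y537S side remained the more distal of both under every alternative tried for this share.

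Most Y537S-side regions had no peak in the same line without Dox. With those 4 lists limited to 47190 peaks, 4550 Y537S-side regions (79.7%; 78.6 to 80.7) were open in none of the WT and Y537S libraries without Dox. In Y537S without Dox 971 were open (17.0%) and in WT without Dox 716 (12.5%). In the full lists 67.9% still had no peak without Dox. The share was higher at higher pileups: it was 62.9% where the smaller Y537S pileup was 11 or 12, 66.9% at 13 to 15, 72.9% at 16 to 19 and 83.4% (79.9 to 86.4) at 20 or more. The 181 regions (3.17%) that were also open in both Y537S and neither WT library without Dox differed between the lines without induction. Of shared regions 2.02% had that pattern. WT-side regions behaved otherwise: 31.4% were open in none of the libraries without Dox, 61.4% in WT and 48.6% in Y537S. For shared regions these shares were 16.4%, 80.1% and 79.9%. In single libraries without Dox 38.5% to 40.1% of all regions were open, against 7.44% to 13.3% of Y537S-side and 39.7% to 50.5% of WT-side regions. The same rule, applied at 47190 peaks to the libraries without Dox, called 2136 regions open in both Y537S and neither WT library (4.4%) and 2492 in reverse (5.13%). With Dox at that length it called 4993 (9.54%) and 3123 (5.97%). The lines thus differed without Dox too.

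A peak was looked up at the same regions in the line with K303R ER, a substitution in the hinge of the receptor, which the rule did not use. At equal list length 11.8% of Y537S-side regions were open in K303R with Dox and 16.6% with Dox and E2, against 70.9% and 66.3% of WT-side and 86.9% and 91.5% of shared regions. In the full lists the Y537S-side shares were 23.4% with Dox and 43.2% with Dox and E2. Among the 535 Y537S-side regions with a pileup of 20 or more, K303R had a peak at 16.8% with Dox and 58.9% with Dox and E2. Of the 12 strongest, 8 had a K303R peak with Dox and E2 and 1 with Dox. Those peaks were low, at most 6, and the full K303R lists held 97243 peaks with Dox and 102713 with Dox and E2. At WT-side regions with a pileup of 10 or more the K303R shares were 96.9% and 95.6%.

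**Figure D3:**
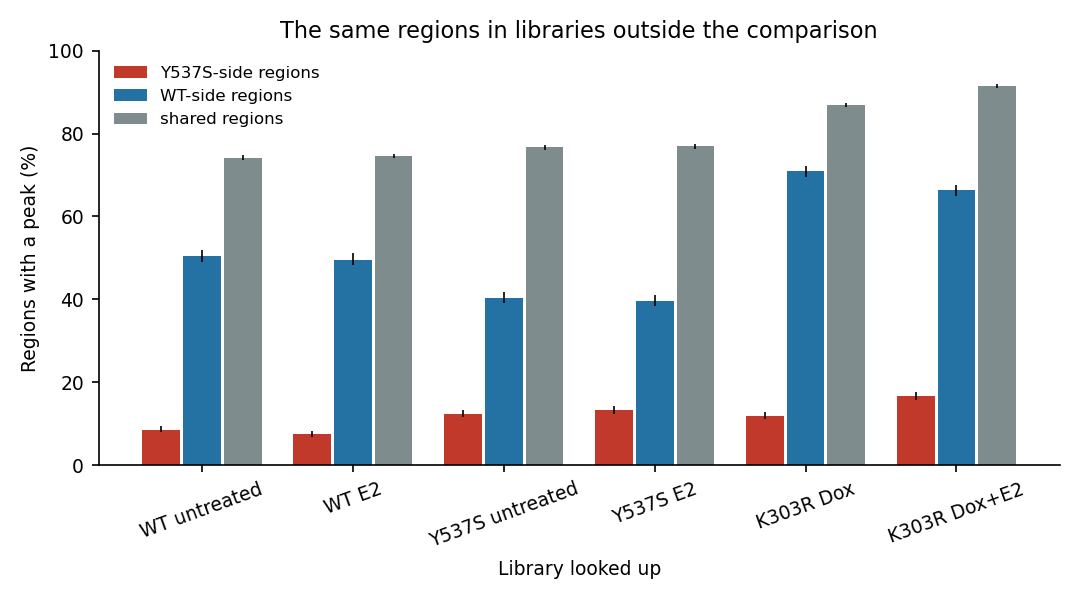
Percent of Y537S-side (red), WT-side (blue) and shared (grey) regions with a peak in 6 libraries outside the comparison, at equal list lengths within the 4 libraries without Dox and within the 2 K303R libraries; error bars are exact 95% intervals over regions. Y537S-side regions stay between 7.44% and 16.6% in all 6, and WT-side regions between 39.7% and 70.9%.

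The deposited names of both induced WT libraries carry 1 date-like tag and those of all Y537S libraries another, and the Y537S names also hold the word trypsin. What the tags record is not given, so ER form, line and this tag cannot be told apart. The untreated and E2 libraries of WT carry the tag of the K303R libraries, so within WT Dox and the tag cannot be told apart either. Line markers were checked by peaks within 1 kb of a gene start. Of 10 luminal markers, 9 had a peak in all 4 induced libraries, and KRT8 had one in WT with Dox alone. No basal marker of 4 (KRT5, KRT14, TP63, KRT17) had a peak in any. Of the fibroblast markers COL1A1 had peaks in all 4 and COL1A2 in Y537S with Dox, and VIM and PDGFRB had none. Of the blood markers SPI1 had a peak in all 4, and PTPRC and CD3E had none.

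Classical ER targets had regions of both kinds. Within 50 kb of a gene, at least 1 Y537S-side region was found for 32.9% of all 19974 protein-coding genes and at least 1 WT-side region for 29.4%, so a single region beside a gene is common. RET, a receptor tyrosine kinase induced by estrogen, had 3 Y537S-side and no WT-side region among 21. Their pileups were 21 and 28, 26 and 26, and 15 and 12 in induced Y537S, and none had a peak in WT or without Dox. The middle one lay inside the gene, 4.6 kb from a start (chr10:43099740-43100514). CA12, a carbonic anhydrase and ER target, had 2 among 19, with 26 and 21 inside the gene (5 in WT with Dox) and 25 and 29 at 33.2 kb from it, and no peak without Dox. GREB1, a coactivator of ER and itself a target, had 1 Y537S-side region inside the gene with 21 and 21 (chr2:11550850-11551488) and no peak in any WT, K303R or uninduced Y537S library. A second GREB1 region was WT-side, with 6 and 7 in induced WT and no peak in the other WT or Y537S libraries. TFF1 and XBP1 had neither kind among 9 and 11 regions, and PGR, the progesterone receptor gene, had 1 WT-side region (12 and 6 in WT). IGFBP4 and NRIP1, a corepressor gene, each had 1 WT-side region with 9 and 5.

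The other genes fixed by name had regions of both kinds. GATA3 had 2 Y537S-side regions inside the gene, at 17 and 16 and at 15 and 22. Both had a peak in Y537S without Dox, at 10 to 16. FOXA1, the pioneer factor of ER, had 1 WT-side region at 8 and 7 in WT and 8 and 8 in Y537S, open at 30 and 36 in Y537S without Dox. ERBB2 had 1 Y537S-side and 2 WT-side regions among 23. MYB, an ER-driven transcription factor in this tissue, had 5 WT-side regions among 15, the strongest at 24 and 13 in WT against 5 and 5 in Y537S and 18 and 29 in Y537S without Dox. FKBP5, an androgen-responsive chaperone gene, had 3 WT-side regions and TFAP2B 3 WT-side and 1 Y537S-side. ESR1 had 4 Y537S-side and 3 WT-side regions among 11. Of the Y537S-side ones, 3 lay within 5.32 kb inside the gene, at 15 and 15, 12 and 11, and 18 and 12, with no peak in WT or Y537S without Dox. The last of these had 4 in WT with Dox, and 11 and 8 in K303R with Dox and with Dox and E2. Reads of the ectopic receptor and of the ESR1 gene itself cannot be told apart in peak lists.

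MYB, FKBP5, TFAP2B and ESR1 lie on chromosome 6, which stood apart as a whole. There 3.56% of regions were Y537S-side and 12.2% WT-side. Over its shared regions the log2 difference of Y537S minus WT pileup was 0.38 below that of all chromosomes with Dox (-0.38), and it was -0.41 without Dox. Chromosome X had 3.84% and 10.3%, with a shared log2 difference of -0.12, and chromosome 14 had 365 Y537S-side and 121 WT-side of 3043 regions, with 0.16. Without Dox the values on those were -0.09 and 0.17, so these shifts were there without induction too, and their part in the counts for single genes was not tested. Chromosome 19 was higher in Y537S at shared regions, by 0.18 with Dox and 0.28 without, yet 21.7% of the 198 regions between 20 and 30 Mb on it were WT-side. Without chromosome 6, 5573 Y537S-side and 4261 WT-side regions remained.

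**Figure D4:**
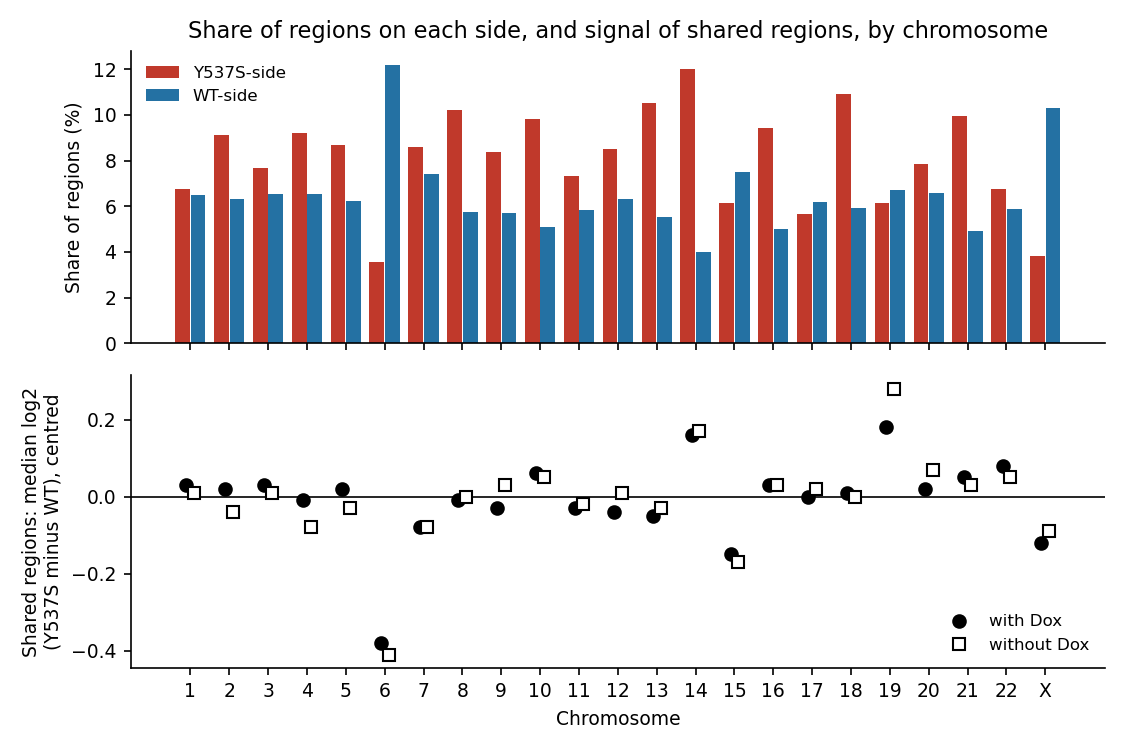
Upper panel: percent of the regions of each chromosome that are Y537S-side (red) and WT-side (blue). Lower panel: median log2 difference of Y537S minus WT pileup over shared regions, centred on all chromosomes, with Dox (filled circles) and without (open squares); chromosome 6 lies at -0.38 and -0.41.

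Around immediate early genes WT-side regions made up a larger and Y537S-side regions a smaller share than around all genes. These genes encode AP-1 transcription factors and other first responders to growth signals and stress. WT-side regions lay beside 17 of 24 (70.8%, against 29.4% of all genes) and made up 13.3% of the 308 regions around them (9.72 to 17.6, against 6.5% around all genes). Y537S-side regions lay beside 4 (16.7%, against 32.9%) and made up 1.62% (0.529 to 3.75, against 7.4%). The list's genes had a median of 12 regions and all genes 6, so shares of regions compare better than counts of genes. The WT-side share exceeded that of all genes in 6 of 6 settings and the Y537S-side share was below it in 6 of 6. These were the main setting, all deposited peaks, no peak in the other form's full lists, windows of 20 and 100 kb, and no chromosome 6. All reuse the same 4 libraries and are not independent. The housekeeping list, among others, also met both in 6 of 6 settings. With all deposited peaks the order of both sides turned, to 3.4% WT-side and 7.94% Y537S-side. ATF3, a stress-induced AP-1 partner, had 7 WT-side regions, and 6 of them had no peak in Y537S or in WT without Dox. A row of 5 of these covered 5.79 kb inside the gene, with pileups of 6 to 9 in WT with Dox and 4 to 8 in WT with Dox and E2. Without ATF3, 12.1% of the regions were WT-side (8.5 to 16.4). FOSB had 4, among them 1 just beyond the gene's end with 16 and 12 in WT against 6 and 10 in Y537S, and 1 with 14 and 7 and no induced Y537S peak. KLF4 also had 4, and FOS had 3.

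Around the 24 luminal identity genes 13.2% of 325 regions were WT-side (9.74 to 17.4) and 4.31% Y537S-side (2.37 to 7.12), beside 18 and 10 genes. AGR2, a secretory pathway protein gene, and SPDEF, a luminal transcription factor gene, had 5 WT-side regions each, TFAP2A 4 and CDH1, the E-cadherin gene, 3. Without the 4 list genes on chromosome 6 the WT-side share was 10.2%. Around the 50 estrogen response genes 8.8% of 557 regions were WT-side (6.58 to 11.5) and 5.21% Y537S-side (3.51 to 7.39). Without chromosome 6 the WT-side share was 7.53%, against 6.18% around all genes. The Y537S-side share of estrogen response genes, 16 of 50, was near the 32.9% of all genes. Apart from RET and CA12, FHL2 and SLC7A5, an amino acid transporter gene, had the most Y537S-side regions with 3 each, and TSKU had 8 WT-side regions. In both lists, as for immediate early genes, the WT-side share exceeded the Y537S-side share in the main setting. With all deposited peaks it did not: 2.1% against 13.9% for luminal and 1.82% against 17.5% for estrogen response genes. With no peak in the other form's full lists the order turned in both lists too. It was then 2.46% against 3.38% for luminal and 1.97% against 4.13% for estrogen response genes. Their WT-side shares were above and their Y537S-side shares below those of all genes in 6 of 6 settings, which include the main one and are not independent. The androgen response, integrated stress and housekeeping lists met both in 6 of 6 settings as well, so this is not particular to these lists.

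Around the mesenchymal genes 11.8% of 102 regions were Y537S-side (6.23 to 19.6), an interval that holds the 7.4% around all genes. Within 100 kb the share was 7.61%, against 7.55% around all genes. SPARC, a matrix protein gene, had 4 of these 12 regions. They had 22 and 25, 19 and 14, 27 and 20, and 11 and 14 in induced Y537S, and 3 had no peak without Dox. ER coregulator genes had 6.81% Y537S-side and 5.38% WT-side regions, with 3 Y537S-side regions at NCOA2, a coactivator. Growth factor receptor genes had 7.84% and 5.39%, with 5 Y537S-side regions at ERBB4. WNT2 had 4 among its 5 regions. Nuclear receptor genes had 10.9% WT-side regions (7.94 to 14.5), with 6 each at RORA and PPARD. The androgen response, integrated stress, interferon, basal, WNT, immune and housekeeping lists had intervals that held the background on the WT side. Housekeeping genes, a list with no tie to ER, had 3.77% Y537S-side regions (1.74 to 7.03), below the background of 7.4% as well.

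**Figure D5:**
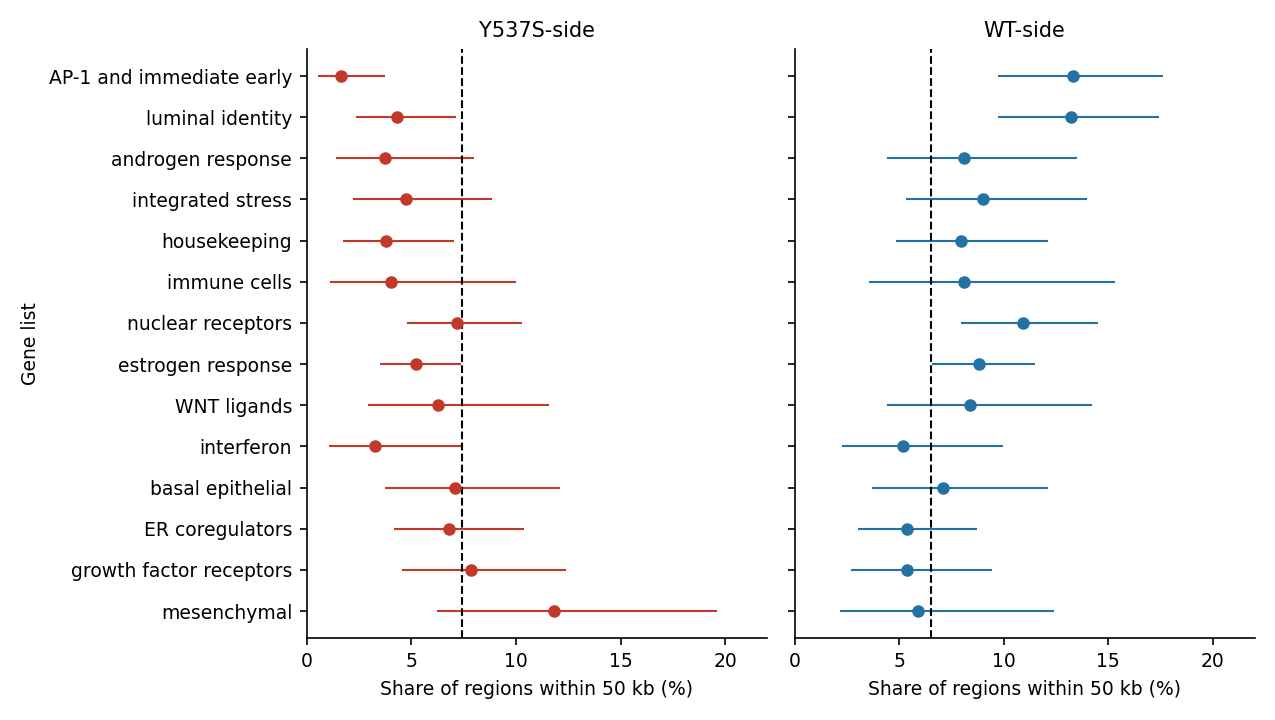
Share of the regions within 50 kb of each list's genes that are Y537S-side (left) and WT-side (right), with exact 95% intervals over regions; dashed lines mark the share around all protein-coding genes (7.4% and 6.5%). Immediate early and luminal identity genes lie right of the line on the WT side and left of it on the Y537S side.

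Among all genes, TENM4, a teneurin adhesion protein gene, had the most Y537S-side regions, 9 of 41, beside 5 WT-side ones. The strongest, inside the gene (chr11:79206881-79207430), had 27 and 38 and no peak in any WT, K303R or uninduced Y537S library. CACNA2D3, a calcium channel subunit gene, FSTL4 and GPHN, which encodes the synaptic scaffold gephyrin, had 8 each. PTPRF, CDH23 and DPF3 had 7 and AGBL4 6. These genes hold 20 to 52 regions each, against a median of 6. On the WT side ZNF254 had 12 of 24 regions and ZNF736 11 of 32, both zinc-finger genes in clusters of related copies, where reads may be placed uncertainly. PRKCE had 9, and SLC22A23 and RREB1, both on chromosome 6, 8 each. Y537S-side regions seldom adjoined: 11 rows of at least 3, each within 5 kb of the next, held 34 regions, and 48 such rows held 166 WT-side regions. The longest Y537S row had 4 regions within 5.02 kb inside IVD, a leucine breakdown enzyme gene, with no peak in induced WT or without Dox.

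Letters of the promoter windows were counted for 4 other patterns beside the half-site, on both strands. GGTCA or TGACC was present in 47 of 90 Y537S-side windows (52.2%; 41.4 to 62.9), 34.1% of 334 WT-side windows, 34.7% of 7308 shared windows and 37.3% of all 34683. The full estrogen response element, GGTCA followed by any 3 bases and TGACC, which overlaps the half-site at both ends, was in none of the Y537S-side or WT-side windows, 4 shared windows and 20 of all (0.0577%). TGTTCT or AGAACA, a half-site of steroid receptors such as the glucocorticoid receptor, was in 22.2% of Y537S-side windows (14.1 to 32.2), 10.2% of WT-side and 14.8% of all. The AP-1 pattern TGANTCA was in 7.78%, 6.29% and 7.7%, and the forkhead pattern TGTTTAC or GTAAACA in 2.22%, 5.39% and 3.43%. Base composition differed between these windows: the median GC content was 55.8% for Y537S-side, 67.3% for WT-side, 65.3% for shared and 58.7% for all windows. The forkhead share, of a pattern rich in A and T, was highest in the WT-side windows, which had the highest GC content. The part of base composition in these shares was not tested. The windows cover few of the 5712 Y537S-side regions, since those are mostly distal.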

How the data were processed

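The build was hg38 and the tools were Bowtie2, MACS2, Picard, SAMtools and FastQC, per the submitters' processing notes; no version, setting or handling of the transposase offset is given in the sources used here. The authors deposited 1 peak list per library, not pooled. Per the labels' protocols, libraries were sequenced as 75 bp paired ends. The deposited fold enrichment is a ratio of summit pileup plus 1 to background plus 1, from which whole pileups were recovered (to within 0.000721). The deposited −log10 p ranked peaks, the deposited −log10 q ranked named regions, and the deposited score is 10 times the −log10 q. Summits on other sequences (72 to 114 in the 4 libraries) were left out.

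Merging, counting and intervals used Python 3.11.15 with numpy 2.4.6, pandas 2.3.3 and scipy 1.17.1, and were tested on simulated lists. Gene spans, starts and promoters came from RefSeq tables of GRCh38.p14; starts were given for 15812 of 19974 protein-coding genes, and both ends of the span served for the rest. No genome was used, so sequences of distal regions are not shown. Of 315 listed genes, 1 was not matched and 1 was matched through a newer symbol.

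Named are the 12 strongest regions of each side by the smaller −log10 q, the genes with the most regions (8 and 5), the 5 strongest by presence without Dox, genes fixed by name, and up to 4 genes per list. The members and lists were chosen with earlier results of these data known. A region and some genes under this rule are not reported here. There were no replicates, so p-values are not given. Alternatives covered list length, q thresholds, overlap, summit windows, distances, gene windows and single libraries; ties, chromosome 6, the 2-fold limit, strict absence, rows of regions, strength classes and the list without ATF3 were added after seeing the data.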

Additional observations from a re-analysis of the deposited data

Results flagged for a closer look

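In 22 Y537S-side regions the lines stood in the reverse order without Dox: both WT libraries and neither Y537S library had a peak, at 47190 peaks per list. They were 0.385% of the Y537S-side regions, while 1.29% of shared regions had that pattern without Dox. With all deposited peaks 2 were left (0.035%, against 0.125% of shared regions). In 106 WT-side regions both Y537S libraries and neither WT library had a peak without Dox (2.24%, against 2.02% of shared regions). With all deposited peaks there were 316 (6.67%, against 2.11% of shared regions). At 47190 peaks per list neither share thus stood clearly above that of shared regions. The 22 and the 106 regions were singled out because, at these list lengths, peak presence with and without Dox differed in opposite directions in the 2 lines. In WT the libraries with Dox carry another tag than those without, so Dox and the tag cannot be told apart there. The difference was not tested, since each condition had 1 library.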

How the results depend on the processing

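No paired analysis was possible because the counts come from no test and each condition had 1 library; the counts for each treatment stand in the report. Y537S-side and WT-side counts were 27440 and 893 with all deposited peaks, 24459 and 607 at a −log10 q of 5, 20073 and 179 at 10, and 1275 and 1664 at 2-fold or more. The Y537S side held 11558 where peaks had to cover 50% of a region. The WT side held 2561 at 39522 peaks per list and 612 with strict absence, that is, no peak in the other form's full lists. Leaving out 1 library gave 7533 to 12061 Y537S-side and 6612 to 14778 WT-side regions, the highest without WT Dox and E2 in each case, since a side then needs fewer libraries to be met. With all peaks the Dox pair had 51223 regions in Y537S and not WT, and the Dox and E2 pair 55819 and, in reverse, 3590. Near a gene start lay 4.89% of Y537S-side and 14.4% of WT-side regions with all peaks, 8.17% and 11.7% at a −log10 q of 10, and 7.35% and 26.7% within 2500 bp, and 12.3% of WT-side regions with strict absence. Without Dox, the Y537S-side shares in none, in Y537S and in WT were 75.8%, 21.3% and 16.6% at 39522 peaks, 84.2%, 12.9% and 9.35% with strict absence, and 67.9%, 31.6% and 19.8% in full lists. The WT-side shares in the same order were 20.3%, 64.7% and 73.3%, then 53.9%, 18.6% and 42.8%, then 14.5%, 81.9% and 75.3%. In K303R with Dox, Y537S-side shares were 10.3%, 8.5% and 23.4% and WT-side shares 68.2%, 54.7% and 87.7% under those 3 settings. With Dox and E2 they were 13.9%, 13.1% and 43.2% on the Y537S side, and 46.4% with strict absence and 86.6% in full lists on the WT side. Of all genes, 75.3% had a Y537S-side region with all peaks and 21.9% within 20 kb, and 6.78% a WT-side region with all peaks and 4.58% with strict absence. With all peaks the Y537S-side and WT-side shares were 17.5% and 1.82% around estrogen response genes, 13.9% and 2.1% around luminal genes, and 7.94% and 3.4% around immediate early genes. With strict absence the WT-side shares of these lists were 1.97%, 2.46% and 3.9%. The cause of these moves was not tested beyond list length. Of the values for the main results, 68 moved and 66 stayed within 1.5 times the count or within the interval of the share. Which side was larger also depended on the setting. The Y537S side made up 47.8% of both with tied peaks left out, 40.0% without WT Dox, 44.9% without WT Dox and E2, and 43.4% at 2-fold or more. In the main setting it was 54.7%, and it was the larger side in the remaining settings. Depth limits absence: in the 4 compared libraries a listed peak needed a pileup of 4, and in the others 3 to 5, so lower signal is not seen.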
